A study of Mus musculus with 2 samples.

Results

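The matricellular and matrix remodelling genes Sparc, Thbs1, Tnc, Vcan, Mmp2 and Fbln1 were examined for sites recovered with an antibody against KLF4 in mouse atherosclerotic lesions. They are 6 of the 21887 protein-coding genes placed on the chromosomes, and they were chosen by measured values, namely the peaks called there in the WT list (wild type). A peak was given to a gene when its midpoint lay in the gene's span or within 10 kb of it. By this rule the 6 genes held 17 of the 2251 peaks of the WT list and 0 of the 1153 peaks of the KO list. Having a WT peak is therefore how the genes were picked and not a result.

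Matricellular proteins are secreted into the extracellular matrix but act mainly on cells, by binding matrix, growth factors and cell-surface receptors, while metalloproteinases such as the Mmp2 product cut matrix proteins. In the artery wall they are known for being made when smooth muscle cells leave the contractile state. KLF4 is a zinc finger transcription factor of the Krüppel-like family, whose members bind GC-rich sites and sites with the letters CACCC, and it is known as a repressor of smooth muscle marker genes.

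Chromatin immunoprecipitation with sequencing (ChIP-seq) was done on flash-frozen BCA tissue of C57BL/6 mice fed a Western diet, with 1 library labelled WT and 1 labelled KO. The tissue holds smooth muscle cells, epithelial cells, macrophages and other cells per the labels, which do not name the deleted gene, the cells in which it was deleted, the age of the animals or how many were pooled. KLF4 and smooth muscle cells appear in the title of the series. The question is which sites recovered with the antibody from WT lesions went uncalled in those labelled KO.

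Each peak carries a score, read as 10 times the negative log10 of its p-value, which ranks peaks within a list but does not measure occupancy and cannot be compared between the lists. The lowest score was 50 in WT and 50.03 in KO, and the medians were 88.3 and 58.1. A KO peak overlapped 356 WT peaks (15.8%) by at least 1 bp. Each genotype had 1 library, so replicate error could not be estimated and the genotypes were not tested against each other. The lists give no read counts and the depth is unknown, so a site without a peak is one that was not called, which does not show that it was unbound. Peak lists do not measure expression, so the labelled cell types could not be checked. Within 10 kb, WT peaks were assigned to 2 of 5 smooth muscle markers (Acta2 and Tagln) and 2 of 5 macrophage markers (Cd68 and Itgam). They were also assigned to 0 of 5 endothelial, 1 of 5 epithelial (Krt14) and 2 of 5 fibroblast markers (Col1a1 and Pi16). The peaks of Acta2 (59.6), Tagln (67.5) and Krt14 (68.25) scored below the WT median, while Col1a1 held 11 peaks scoring up to 763.6. The Tagln peak also lay in the coding gene Pcsk7. The peaks given to Cd68, Itgam and Pi16 lay outside those genes, in Eif4a1, the pseudogene Gm45700 and Mtch1. Among these markers, a KO peak was assigned to Krt19 alone, an epithelial keratin gene, with a score of 56.3, below the KO median. Across all protein-coding genes, 6.22% had a WT peak within 10 kb and 2.34% a KO peak. Counts out of 5 are too small to set apart from these shares and are no result about cell types.

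The sequences below are shown because they cover listed starts of the genes, where promoter binding would lie. They also cover the 1 peak of the 6 genes that fell on a listed start. Thbs1, Mmp2 and Gm45472, a gene that overlaps Mmp2, had no listed start, so peaks could not be placed against theirs. RefSeq promoter windows (GRCm38.p6, the mm10 assembly) were at hand for 4 of the 6 genes, Sparc, Tnc, Vcan and Fbln1. Each is given as the 250 bases before a listed transcription start, 5′ to 3′ on the strand of the gene, with capitals marking matches of CACCC or GGGNGTGG on either strand (CACCC reads GGGTG on the other strand, and matches of the 2 motifs can overlap).

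Vcan, chr13:89742513-89742762, minus strand: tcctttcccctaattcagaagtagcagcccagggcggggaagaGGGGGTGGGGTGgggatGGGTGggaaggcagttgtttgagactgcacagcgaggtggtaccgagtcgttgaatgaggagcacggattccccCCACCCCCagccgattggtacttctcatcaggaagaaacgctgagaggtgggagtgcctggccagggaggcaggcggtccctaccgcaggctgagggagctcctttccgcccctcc

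Fbln1, chr15:85205699-85205948, plus strand: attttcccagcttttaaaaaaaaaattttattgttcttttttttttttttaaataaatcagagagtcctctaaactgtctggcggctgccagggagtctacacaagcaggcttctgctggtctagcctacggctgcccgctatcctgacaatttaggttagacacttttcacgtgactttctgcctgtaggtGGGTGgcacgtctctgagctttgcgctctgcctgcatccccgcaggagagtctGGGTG

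Sparc, chr11:55420081-55420330, minus strand: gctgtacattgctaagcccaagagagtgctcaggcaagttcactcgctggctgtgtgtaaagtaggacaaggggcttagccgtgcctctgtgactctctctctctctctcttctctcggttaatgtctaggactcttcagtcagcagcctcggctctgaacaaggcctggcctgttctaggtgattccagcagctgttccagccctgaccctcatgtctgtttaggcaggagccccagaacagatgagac

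Tnc, chr4:64047016-64047265, minus strand: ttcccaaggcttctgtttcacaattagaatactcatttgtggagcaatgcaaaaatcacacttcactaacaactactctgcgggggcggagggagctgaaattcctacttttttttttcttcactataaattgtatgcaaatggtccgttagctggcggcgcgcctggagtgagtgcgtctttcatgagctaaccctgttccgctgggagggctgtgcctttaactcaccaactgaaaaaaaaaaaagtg

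Tnc peak at the start of 8030451A03Rik, chr4:63984536-63984733, plus strand: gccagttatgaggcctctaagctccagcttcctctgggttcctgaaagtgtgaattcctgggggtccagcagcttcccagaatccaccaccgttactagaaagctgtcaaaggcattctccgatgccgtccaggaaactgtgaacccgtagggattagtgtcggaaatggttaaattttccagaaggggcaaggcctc

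The Vcan window held 4 matches of CACCC and 2 of GGGNGTGG, and the Fbln1 window held 2 of CACCC and 0 of GGGNGTGG. The Sparc and Tnc windows and the Tnc peak held 0 of either. Across all 32851 windows of the same length, from 27025 genes, 52.0% held CACCC and 15.9% held GGGNGTGG. A window with or without CACCC is therefore common, and so is one without GGGNGTGG, while a match of GGGNGTGG is less common. The mean numbers of matches per window were 0.83 and 0.19. The share of windows with as many matches as that of Vcan was not computed. None of the listed windows of these 4 genes overlapped a WT peak. The peak nearest to a listed start of its own gene lay 10.1 kb away in Sparc, 25.5 kb in Fbln1, 30.2 kb in Vcan and 62.3 kb in Tnc.

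Sparc had the highest-scoring peak of the 6 genes. Its product, also called osteonectin, is a collagen-binding glycoprotein that takes part in collagen assembly. The gene (gene 20692) spans 25.9 kb of chromosome 11, from 55394159 to 55420080, and is read from the upper end. Its 3 WT peaks lay at 55398618 to 55398794 (score 228.9, 177 bp wide), 55401894 to 55402175 (975.1, 282 bp) and 55409919 to 55410055 (338.8, 137 bp). The middle peak ranked 45th among all 2251 WT peaks, and all 3 were above the WT median. From the start of the gene they lay 38.9, 69.6 and 82.5% of the way along the span, so the lowest-scoring peak was the farthest from the start. By its highest peak, Sparc ranked 14th among the protein-coding genes with a WT peak in the span.

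Thbs1 encodes thrombospondin 1, a matricellular glycoprotein known for activating latent TGF-beta and for restraining new vessel growth. The gene (gene 21825) spans 15.3 kb of chromosome 2, from 118111876 to 118127133, the shortest span of the 6. It held 4 WT peaks, at 118114330 to 118114405 (146.0, 76 bp), 118118186 to 118118336 (100.3, 151 bp), 118120833 to 118120932 (311.5, 100 bp) and 118123361 to 118123501 (66.8, 141 bp). The 4 were spaced 2.55 to 3.89 kb apart and ran from 16.3 to 75.7% of the span, counted from its lower end. This was the highest density of the 6 genes, 2.62 peaks per 10 kb, with 3.07% of the span covered. The 66.8 peak was the lowest-scoring of all 17, and the 76 bp peak was the narrowest.

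Tnc encodes tenascin C, a hexameric glycoprotein that appears in remodelling and injured tissue. The gene (gene 21923) spans 87.2 kb of chromosome 4, from 63959785 to 64047015, and is read from the upper end. Its WT peaks lay at 63972629 to 63972752 (70.9, 124 bp) and 63984536 to 63984733 (113.2, 198 bp), 85.2 and 71.5% of the way from the start. The second of them was also at the start of another gene. The long noncoding RNA gene 8030451A03Rik, read in the opposite direction, begins at 63984731 inside the Tnc span, and the peak's midpoint lay 96.5 bp before that start. Of the peak's 198 bases, printed above, 195 came before it. Overlap with a listed promoter window was rare on the chromosomes of the promoter table: 31 of 2110 WT peaks (1.47%) and 5 of 1061 KO peaks (0.471%). Genes without a listed window, such as Thbs1 and Mmp2, do not enter these shares, so peaks at their starts are missed. The lists do not show which of the overlapping genes the peak belongs to.

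Vcan encodes versican, a large chondroitin sulfate proteoglycan that binds hyaluronan and is abundant in the intima. The gene (gene 13003) spans 87.7 kb of chromosome 13, from 89655309 to 89743027, and is read from the upper end. A pair of peaks lay near the far end, at 89656840 to 89656941 (77.7, 102 bp) and 89657599 to 89657707 (87.0, 109 bp), with midpoints 0.763 kb apart. They were 98.2 and 97.3% of the way along the span, and both scored below the WT median. The third peak, at 89712193 to 89712371 (189.3, 179 bp), lay 54.6 kb from the pair and 35.0% of the way along. The span also holds the pseudogene Gm16318, whose nearest peak midpoint was 5016 bp away, and part of the long noncoding RNA gene Gm4117, 21415 bp from the nearest midpoint.

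Mmp2 encodes gelatinase A, a metalloproteinase that degrades basement membrane collagen and denatured collagen. The gene (gene 17390) spans 26.1 kb of chromosome 8, from 92827290 to 92853421. Its 4 WT peaks lay at 92830746 to 92830913 (163.6, 168 bp), 92836900 to 92837006 (71.0, 107 bp), 92840395 to 92840534 (122.4, 140 bp) and 92852561 to 92852656 (238.2, 96 bp). They ran over almost the whole gene, from 13.5 to 96.9% of the span from its lower end. The highest-scoring of them lay 0.813 kb inside the upper end, and it was the only one of the 17 peaks within 1 kb of an end of its gene. Its midpoint was 201.5 bp outside the span of the long noncoding RNA gene Gm45472 (92852810 to 92855418), which overlaps that end of Mmp2. The strand of Gm45472 was not listed, so whether the peak lay on the side of its start is unknown.

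Fbln1 encodes fibulin 1, a calcium-binding glycoprotein of elastic fibres and basement membranes that binds fibronectin. The gene (gene 14114) spans 80.3 kb of chromosome 15, from 85205949 to 85286294, and is read from the lower end. It held a single WT peak, at 85231458 to 85231543 (99.3, 86 bp), 31.8% of the way along. That score was held by 23 WT peaks. It was the sparsest of the 6 genes, with 0.124 peaks per 10 kb.

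**Figure D1:**
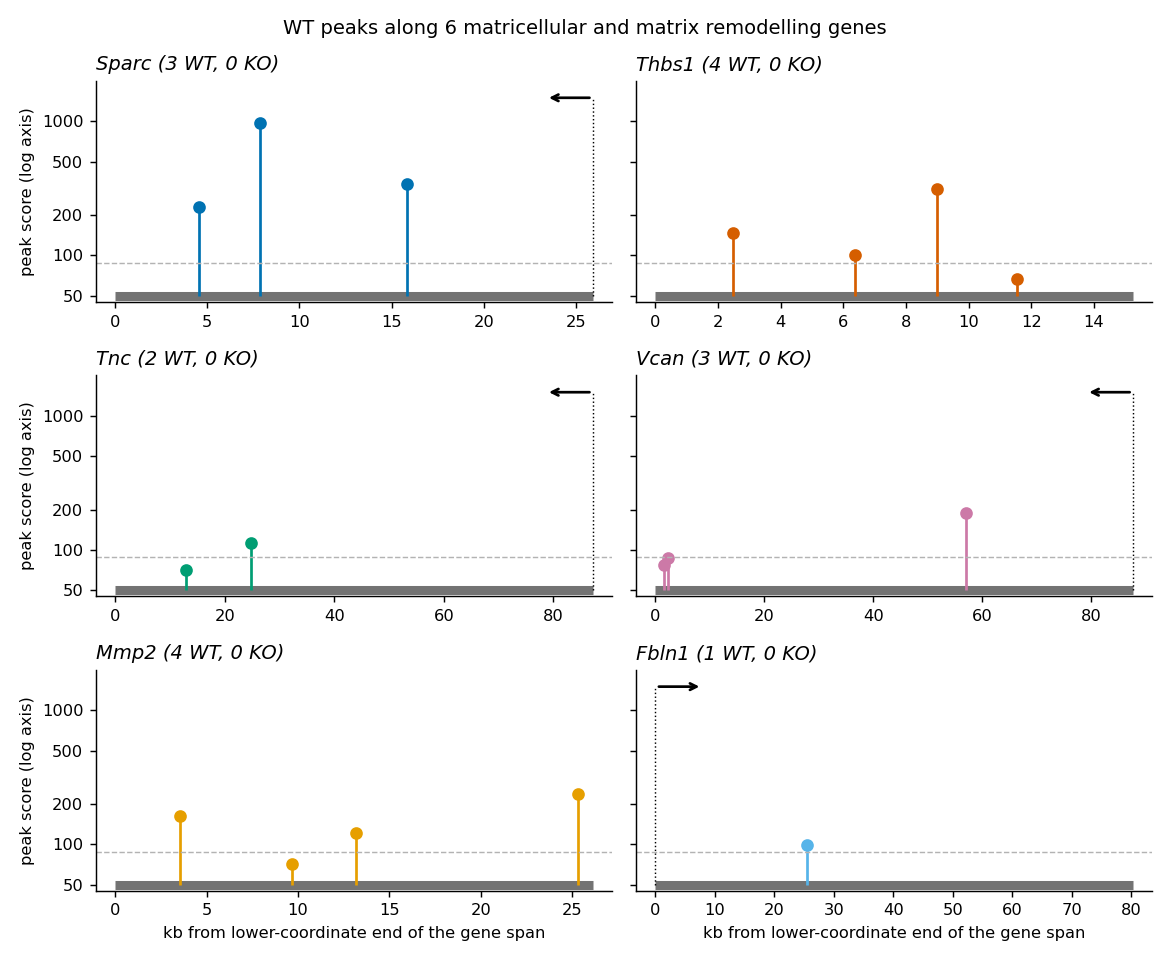
WT peaks along each gene, with the distance in kb from the lower-coordinate end of the span on the horizontal axis and the peak score on a log axis. The grey bar is the gene span, arrows mark the start and direction of the 4 genes with a listed strand, and the dashed line is the WT median score of 88.3. The peaks lie inside the spans and away from the marked starts, and the highest is the Sparc peak at 975.1.

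No other gene's span held the midpoint of any of the 17 peaks, whether coding, noncoding or pseudogene. All 17 lay inside the span of their own gene, so neither the 10 kb margin nor its limit decided any assignment. In the table used, 0 pseudogenes carried a name made of any of the 6 symbols followed by -ps. Pseudogenes with other names, such as Gm16318, could not be found this way, so copies of the 6 genes may exist elsewhere. Across the rest of the WT list, 89 of 1247 peaks in other protein-coding spans (7.14%) also lay in a pseudogene span. By number of WT peaks in the span, Thbs1 and Mmp2 were among 51 protein-coding genes with 4 or more (0.233% of 21887). Sparc and Vcan were among 117 with 3 or more (0.535%), Tnc was among 237 with 2 or more (1.08%), and Fbln1 was among 829 with at least 1 (3.79%).

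The neighbourhood of each gene was empty in both lists. The next WT peak lay 385.0 kb from the span in Sparc, 467.4 kb in Thbs1, 450.9 kb in Tnc, 908.6 kb in Fbln1, 1478 kb in Vcan and 7715 kb in Mmp2. Of the protein-coding genes within 100 kb, 4 at Sparc, 4 at Fbln1, 2 at Mmp2 and 1 each at Thbs1, Tnc and Vcan, 0 held a WT peak. This was also the usual state of genes with WT peaks: among the 829 with a peak in the span, 74.9% had no further WT peak within 100 kb, and among the 117 with 3 or more, 72.6%.

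No KO peak was assigned to any of the 6 genes, against a background of 2.34% of protein-coding genes with a KO peak within 10 kb and 6.22% with a WT peak. A KO peak in the span was held by 1.63% of protein-coding genes, and 5.51% had a WT peak and no KO peak within 10 kb. Among the 8834 protein-coding genes with spans between the shortest and the longest of the 6, 2.07% had a KO peak within 10 kb and 6.64% a WT peak. At so low a background, 0 of 6 genes with a KO peak is no result about them. The nearest KO peak lay 450.9 kb from Tnc, 877.4 kb from Thbs1, 905.9 kb from Mmp2, 1254 kb from Sparc, 1776 kb from Vcan and 8086 kb from Fbln1. The one nearest Tnc scored 419.4 in KO and overlapped a WT peak, as did the one nearest Sparc, with a KO score of 132.1. The KO peaks nearest Thbs1, Vcan, Mmp2 and Fbln1 overlapped no WT peak. Absence of KO peaks was also common among genes with several WT peaks: 215 of the 237 protein-coding genes with 2 or more in the span (90.7%) held 0 KO peaks there.

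As a group, the 17 peaks had a median score of 122.4 (66.8 to 975.1) and a median width of 137 bp (76 to 282). The other 1247 WT peaks in protein-coding spans had medians of 88.9 and 155 bp. Above the WT median score were 12 of the 17 (70.6%), compared with 50.1% of the others, and 3 of the 17 scored above 291.6, the limit of the top decile of WT scores. Those were the upper 2 in Sparc and the highest in Thbs1. Scores below 60, close to the lowest score of the list, were held by 0 of the 17 and by 16.4% of the others. Overlap with a KO peak was found for 0 of the 17 and for 6.66% of the others. These values describe genes picked for their peaks and were not tested.

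Some of the 17 peaks had a score shared exactly with other WT peaks. The 146.0 peak of Thbs1, the 70.9 peak of Tnc, the 77.7 peak of Vcan and the Fbln1 peak had scores held by 13, 4, 20 and 23 WT peaks. That is 4 of 17 (23.5%), against 798 of all 2251 WT peaks (35.5%) with a score that occurs more than once. Score and width were weakly related over the 17 peaks (Spearman rho 0.21) and over all WT peaks (0.20), peaks that share 1 library.

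**Figure D2:**
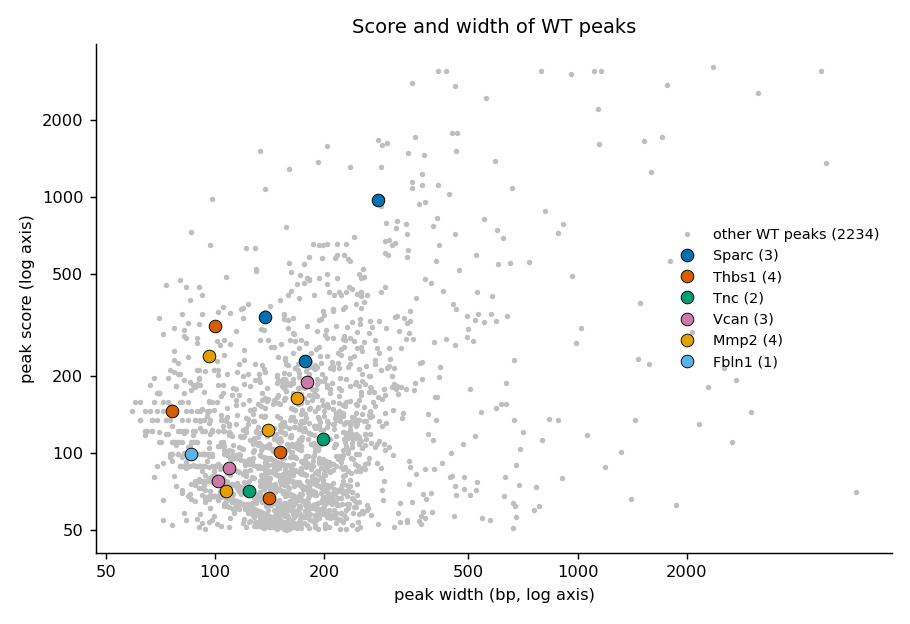
Score against width, both on log axes, for the WT peaks, with 1 point per peak. Coloured points are the 17 peaks of the 6 genes and grey points the other 2234. The coloured points run in width from 76 to 282 bp and in score from 66.8 to 975.1.

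Strand was known for the 4 genes with a promoter window, which held 9 of the 17 peaks. Past the middle of the span lay 6 of these 9 (66.7%), with a median position 71.5% of the way from the start. For the 671 other protein-coding genes with a WT peak and a listed strand, 672 of 1014 peak positions (66.3%) were past the middle, with a median of 65.9%. With 9 peaks in 4 genes these values were not tested. Within 1 kb of either end of the span lay 1 of the 17 peaks (5.88%) and 255 of the 1247 others (20.4%). Span length was not matched here, and in a short gene any peak lies near an end, so these shares are not directly comparable. The gene table gives no exons, so peaks were not assigned to exons, introns or untranslated regions.

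A wider list of 73 matrix genes by family was read in the same way, written down with the results for the 6 genes known. Of the 67 genes that are not among the 6, 12 had a WT peak within 10 kb (17.9%), against 6.22% of protein-coding genes, and 0 had a KO peak, against 2.34%. All 12 held the peak in the span. They held 20 WT peaks, with a median score of 139.9 (51.1 to 351.0) and a median width of 127 bp. None of the 20 overlapped a KO peak, which is close to the share of 6.66% among WT peaks in protein-coding spans other than the 6.

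Relatives of the 6 genes made up several of the 12. In the SPARC family, 2 of the 7 other genes had a WT peak, Fstl1 (222.7 and 189.1), which encodes a secreted follistatin-like glycoprotein, and Spock1 (83.9), a testican proteoglycan gene. The Spock1 peak also lay in the long noncoding RNA gene Gm33294. Among the fibulins, 2 of the 6 others had one, Fbln5 (108.8) and Efemp2 (88.3), both genes of elastic fibre assembly. The 4 other thrombospondin genes, the 3 other tenascin genes and the 3 other hyalectan genes on the list had 0. At a background of 6.22%, counts of 0 or 2 among so few genes are no result about any of these families.

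Mmp14 and the inhibitor genes Timp2 and Timp3 also had WT peaks. Mmp14, whose membrane-bound product activates pro-MMP2 at the cell surface, held 4, with scores of 185.4, 254.6, 190.7 and 107.7. The list held 13 metalloproteinase genes besides Mmp2, of which the other 12 had 0 WT peaks, and 9 Mmp genes off the list, read after the values were seen, also had 0. Timp2, which encodes the inhibitor that bridges pro-MMP2 to that activator, held 1 (75.7), as did the inhibitor gene Timp3 (146.0). The Timp3 peak also lay in the span of Syn3, a synapsin gene, and its score was held by 13 WT peaks. The inhibitor genes Timp1 and Timp4 had 0. Mmp14 was thus 1 of the 13 metalloproteinase genes besides Mmp2 (7.69%), against 6.22% of all protein-coding genes. Timp2 and Timp3 were 2 of 4 inhibitor genes. Counts this small are no result about either family, and a link to the Mmp2 protein was not tested.

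The other genes with WT peaks covered 4 further groups. Ccn2, the gene of connective tissue growth factor, held 4 peaks in a span of 3.24 kb, scoring 71.5, 83.8, 256.0 and 51.1, and Ccn1, the gene of a related matricellular protein, held 1 (158.7). The 4 other CCN genes had 0. Tgfbi, a TGF-beta induced matrix protein gene, held 2 (133.9 and 351.0), and Postn and Spp1, the genes of periostin and osteopontin, held 0. Loxl1, a lysyl oxidase gene of elastin crosslinking, held 1 (203.8), and the crosslinking genes Lox, Loxl2, Loxl3, Loxl4 and Tgm2 held 0. Fbn1, the fibrillin 1 gene, held 1 (60.4, a score held by 6 WT peaks), and the elastic fibre genes Eln and Fbn2 held 0. The 4 small leucine-rich proteoglycan genes and 5 adamalysin genes on the list had 0 peaks. In all of these groups, with or without peaks, the counts of genes were too small to set apart from the background of 6.22%. Read after the values were seen, 2 of 48 Adam and Adamts genes off the list had a WT peak (4.17%), Adam10 with 3 and Adamts17 with 2. A KO peak was assigned to 1 of the 48, against 2.34% of protein-coding genes. Where strand was listed, 14 of the 15 peaks of these non-member genes (93.3%) lay past the middle of the span, with a median of 87.4%. The 15 peaks came from 10 genes, with 4 in Mmp14 alone. For protein-coding genes with WT peaks other than the 6, 66.3% of peak positions were past the middle and the median was 65.9%. The difference was not tested.

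**Figure D3:**
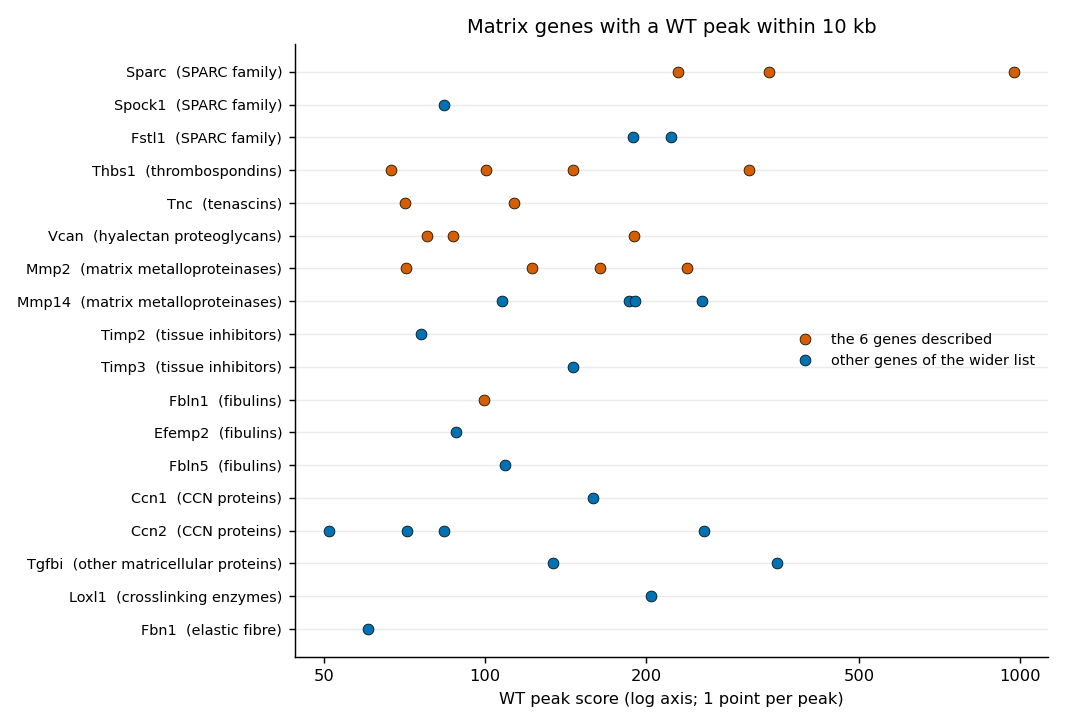
Scores of WT peaks within 10 kb of the 18 matrix genes that had any, of 73 on the wider list, with 1 point per peak on a log axis and the family in brackets. Orange points are the 6 genes and blue points the other 12. Sparc reaches 975.1, and the blue points end at 351.0 in Tgfbi.

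**Figure D4:**
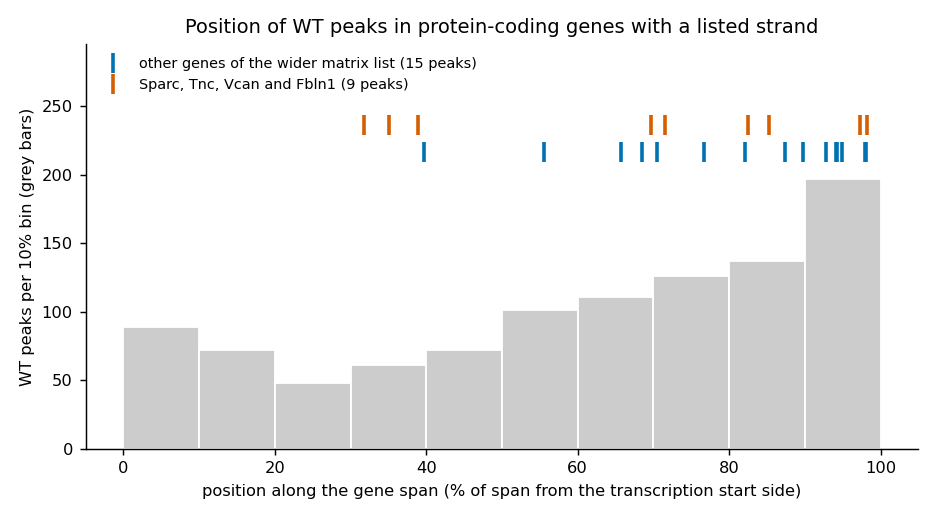
Position of WT peaks along protein-coding genes with a listed strand, as a percentage of the span from the side of the transcription start, with grey bars counting peaks of all such genes except the 6 in bins of 10%. Orange marks are the 9 peaks of Sparc, Tnc, Vcan and Fbln1, and blue marks the 15 peaks of other genes on the wider list. The bars are highest in the last bin, and 14 of the 15 blue marks lie past the middle.

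For each of the 6 genes, the non-member protein-coding gene most like it in the 2 libraries was taken as the one with the same number of WT and KO peaks in the span and the nearest highest WT score. Likeness here rests on 1 library per group. For Sparc this was Ybx1, a nucleic acid binding protein gene with 3 peaks scoring 699.9, 581.1 and 266.6. The highest Sparc score differed from the Ybx1 one by 0.48 on the log2 scale, the poorest of the 6 matches. Thbs1 was matched by Acly (300.0), the gene of ATP citrate lyase, and Mmp2 by Actn4 (224.6), an alpha-actinin gene. Tnc was matched by Zfp207 (113.4), a zinc finger gene, and Vcan by Nfe2l1 (187.6), a transcription factor gene. These matches differed by 0.0024 to 0.085 on the log2 scale. The single Fbln1 peak had the same score as that of 8 other genes with 1 peak, of which Banf1, a chromatin protein gene, came first by name. None of the 6 matched genes is on the wider matrix list.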

How the data were processed

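ChIP-seq peak lists from 1 WT and 1 KO library were read. The submitters' processing notes name Bowtie 1.0, SAMtools 0.1.18 and mm10. Peak names in the deposited lists show MACS. Its version, settings and control library were not given in the sources used here. Each peak has the authors' deposited score, taken as 10 times the negative log10 of a p-value, on which 50 corresponds to 1e-05.

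Gene spans came from NCBI RefSeq GRCm38.p6, which shares mm10 coordinates. A gene was given peaks with their midpoint in its span or within 10 kb, and peaks were shared at 1 bp of overlap. Motifs were counted in RefSeq promoter windows. The genes and lists were chosen with earlier results of these data known. Named were the 6 genes, genes of the wider list with a peak, and the nearest match of each of the 6. No test was made. Alternatives covered the window, score, list size, pseudogenes, overlapping genes and the sharing rule. Gene assignment and overlap were checked on simulated peaks. Python 3.11.15, numpy 2.4.6, pandas 2.3.3 and matplotlib 3.10.9 were used.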

Additional observations from a re-analysis of the deposited data

How the results depend on the processing

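Each count was recomputed under 8 to 11 alternatives, 54 values in all. All stayed within 1.5 times the reported count, and counts of 0 stayed 0. For the 6 genes most of this was fixed in advance. They were picked for their WT peaks, all of which lay in the spans. Their next WT peak lay at least 385.0 kb away and the nearest KO peak at least 450.9 kb away. No margin tried could therefore change their counts, and settings that only remove peaks could not raise a count of 0. The 6 genes kept a WT peak and had 0 KO peaks with the span alone, with margins of 2500 bp or 25 kb, and with any overlap. With only the peaks that reached the median score of their own list, or the WT list cut to its 1153 highest peaks, 12 of the 17 WT peaks were left, all 3 in Sparc, 3 each in Thbs1 and Mmp2 and 1 each in Tnc, Vcan and Fbln1. The wider list then had 15 genes with a WT peak, without Fbn1, Timp2 and Spock1, and had 17 without Timp3 when peaks in another coding gene were left out. No KO peak lay within 1 kb of any of the 17. No paired analysis was possible because each group has 1 library. The unknown depth limits what an uncalled peak means.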
